A study of Rattus norvegicus with 15 samples.

Results

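Expression in dorsal root ganglion (DRG) cells was compared between 18 h and 12 h of dibutyryl cAMP (dbcAMP), to separate genes that changed in the last 6 hours from those already at a steady ratio. The 6 arrays labelled 12 h and 18 h were chosen, 3 per time, of the 15 arrays of the series. Each array set RNA of dissociated L4 and L5 DRG cells from juvenile rats given 1.5 mM dbcAMP (Cy5) against RNA of DRG cells in medium alone (Cy3). Dishes were coated with myelin or poly-L-lysine, and which coating an array had is not stated. No genotype, strain or exact age is given. Nothing states that arrays of 1 time are separate cultures, and the spread behind each p-value, being between arrays, may be technical. A DRG culture holds neurons, glia and other cells, and fewer cells of a type and less RNA per cell cannot be told apart.

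DRG neurons carry sensation from the body to the spinal cord, and cAMP is a second messenger known to switch them from inhibition by myelin to axon growth. The dibutyryl form crosses the membrane and activates protein kinase A, which phosphorylates the transcription factor CREB. CREB binds the cAMP response element and turns on immediate genes, some of which encode transcription factors or secreted proteins that act on later genes. A ratio at a late time can hold both direct and secondary responses.

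All values are log2 of the deposited ratio of treated over control, where 1 is 2-fold, and all differences are the 18 h mean minus the 12 h mean. A gene that rose or fell did so in this ratio, and whether its RNA changed in treated or in control cells was not measured. The 6 arrays lacked 56 to 105 of 5088 probes each. Arrays 1 and 2 of 12 h and the 3 arrays of 18 h were wide (SD of log2 ratios 0.627 to 0.703) and array 3 of 12 h was narrow (SD 0.383). Array 2 of 12 h correlated least with the other 5 (r across probes 0.281 to 0.319, where probes are not independent). The median SD between the 3 arrays of a probe was 0.288 at 12 h and 0.288 at 18 h, against 0.149 to 0.251 at the earlier times.

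Few single probes were called as changed between 12 h and 18 h, although many differed from control at 18 h. Of 4983 probes tested, 32 (0.642%) differed between the times, 11 higher (0.221%) and 21 lower (0.421%) at 18 h (limma on all 15 arrays, Benjamini-Hochberg adjusted p under 0.05). Against control, 435 probes (8.73%) were called at 12 h, 192 higher (3.85%) and 243 lower (4.88%). At 18 h the count was 1112 (22.3%), 542 higher (10.9%) and 570 lower (11.4%). The log2 ratios had a median size of 0.199 at 12 h and of 0.257 at 18 h. A difference between times had a median standard error of 0.241 and a median 95% interval of 0.519 on each side, before adjustment over all probes. The smallest difference called was 0.742, and larger ones also missed the threshold, so few calls do not show that few genes changed.

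The 32 calls were lost under 2 other ways of fitting. After scaling all arrays to 1 common spread no probe passed (limma, lowest adjusted p 0.0560, 356 probes at an unadjusted p under 0.05 against 732, or 14.7%), and the differences of the 32 shrank to a median of 0.637 of their size. That spread was the mean of all 15 arrays on a log scale, below that of the wide arrays. Part of this shrinkage was therefore fixed by construction. When only these 6 arrays were fitted no probe passed either (lowest adjusted p 0.180, 371 at an unadjusted p under 0.05), with the differences unchanged by construction and fewer arrays behind the spread. The fit of all 15 arrays also took its spread from the earlier times, where the median SD was 0.149 to 0.251 against 0.288. The part of each in the loss of calls was not tested. In simulated data with arrays as unequal in spread as these, the fit of all 15 arrays made more false calls than the threshold allows. Without any 1 of the 6 arrays, 15 of the 32 kept their call. The arrays of the 2 times did not overlap for any of the 32. Over all probes with a ratio on all 6 arrays, 703 of 4890 had no overlap (14.4%), 359 higher (7.34%) and 344 lower (7.03%). An exact permutation test of 3 against 3 arrays cannot give a two-sided p below 0.1 for a single probe.

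**Figure D1:**
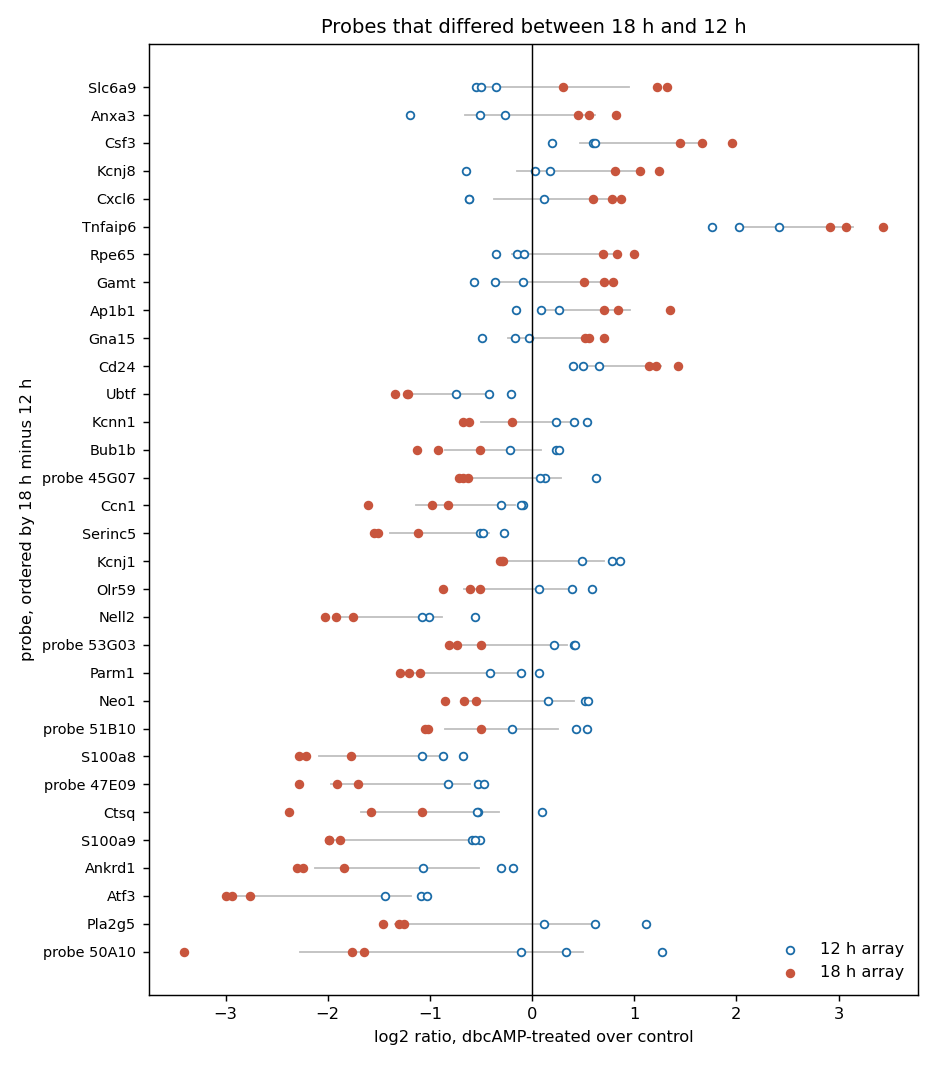
Log2 ratio of treated over control (horizontal axis) on each 12 h array (open circles) and each 18 h array (filled circles) for the 32 probes that differed, ordered by the difference; grey lines join the means. The 3 arrays of a time lie apart from those of the other time for every probe, from −2.77 for probe 50A10 to 1.41 for Slc6a9.

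By their calls at each time, the 32 probes fell into 17 late, 10 continuing and 5 returning ones. Late probes (7 higher, 10 lower) differed from control at 18 h and were not called at 12 h. Continuing probes (3 higher, 7 lower) were called at both times and moved further from control, and returning probes (1 higher, 4 lower) had been called at 12 h in the direction opposite to the difference. A further 231 probes were at a plateau, meaning that both times were called with 1 sign and the 95% interval of the difference lay within 1 on the log2 scale. Another 79 were called at both times with 1 sign but had intervals reaching past that limit. Of 788 probes called at 18 h and not at 12 h, 17 had a difference that passed the test, so a call at 18 h alone does not show a late change.

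**Figure D2:**
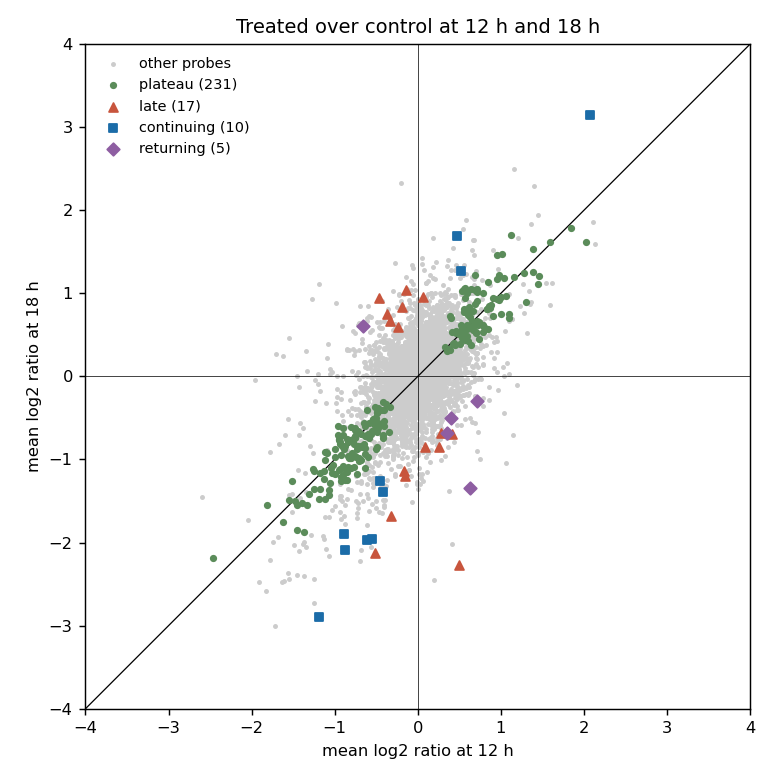
Mean log2 ratio at 12 h (horizontal axis) against that at 18 h (vertical axis) for the tested probes, coloured by class, with the line of equal ratios. The 231 plateau probes follow the line, the 17 late probes lie between −0.52 and 0.50 on the horizontal axis, and 2 probes lie outside the axes, which end at 4 in each direction.

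Atf3, the transcription factor that marks injured sensory neurons, had a treated to control ratio that fell further below 1 between 12 h and 18 h. The 3 arrays of 12 h gave −1.09, −1.03 and −1.44, and those of 18 h gave −3.00, −2.94 and −2.76. All 18 h arrays lay far below all 12 h arrays, and the spread within a time was small beside the gap. The difference was −1.71 (95% interval −2.05 to −1.38, limma adjusted p 0.000163), a 3.28-fold lower ratio. The mean had been 0.14 at 1 h and −0.39 at 6 h, neither of them called. With arrays scaled to a common spread the difference was −0.80 (adjusted p 0.468).

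S100a8 and S100a9, which encode the subunits of calprotectin, a calcium-binding protein abundant in neutrophils, fell together. S100a9 was −0.59, −0.51 and −0.56 at 12 h and −1.99, −1.88 and −1.99 at 18 h. The 3 arrays of each time were almost equal, and this was the only probe that also passed the methods' t-test after Benjamini-Hochberg adjustment. Its difference was −1.40 (95% interval −1.68 to −1.11, limma adjusted p 0.000163). S100a8 was −0.68, −1.08 and −0.87 at 12 h and −2.21, −2.28 and −1.77 at 18 h, a difference of −1.21 (adjusted p 0.00992). The other continuing probes that fell had held different courses before 12 h. Serinc5, a membrane protein, was at −0.27, −0.51 and −0.48 and then at −1.51, −1.55 and −1.12 (difference −0.97, adjusted p 0.00992). Nell2, a secreted neuronal glycoprotein, had been called at −1.44 at 1 h, stood at −0.88 at 12 h and fell to −1.90 (adjusted p 0.0214). Ubtf, a transcription factor of ribosomal RNA genes, had likewise been called at −0.87 at 1 h, stood at −0.45 at 12 h and fell to −1.26 (adjusted p 0.0400). For Nell2 and Ubtf the last 6 hours thus follow a ratio that had been nearer to control at 12 h than at 1 h, a course whose steps before 12 h were not tested. Probe 47E09, with no symbol, went from a mean of −0.61 to −1.96 (adjusted p 0.00278).

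The continuing probes that rose were secreted or surface proteins. Tnfaip6, an inflammatory protein that binds hyaluronan, was at 2.42, 1.76 and 2.03 at 12 h and at 3.07, 2.92 and 3.44 at 18 h. The groups did not overlap, although Tnfaip6 was already strongly raised, with a mean of 2.36 at 6 h. The difference was 1.07 (95% interval 0.66 to 1.49, limma adjusted p 0.0194), and 0.22 with arrays scaled to a common spread. Csf3, the granulocyte colony-stimulating factor, rose from 0.20, 0.60 and 0.62 to 1.96, 1.45 and 1.66. Its difference of 1.22 (adjusted p 0.00983) kept its call without any 1 array. Cd24, a small surface glycoprotein, rose from 0.40, 0.50 and 0.66 to 1.21, 1.14 and 1.43 (difference 0.74, adjusted p 0.0400), the smallest difference among the calls.

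**Figure D3:**
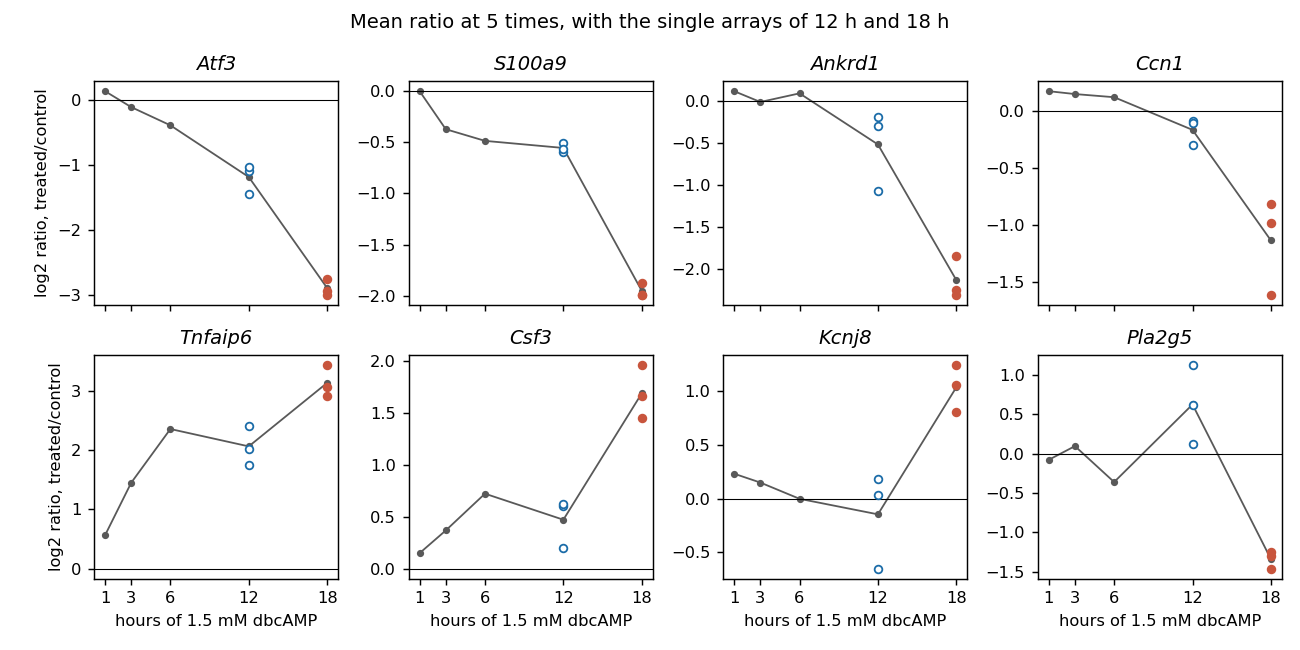
Mean log2 ratio (vertical axis) of 8 changed genes at 1, 3, 6, 12 and 18 h of 1.5 mM dbcAMP (horizontal axis), with the single arrays of 12 h (open circles) and 18 h (filled circles). Atf3 and Tnfaip6 were already away from 0 at 12 h (−1.19 and 2.07), Ccn1 and Kcnj8 were near 0 there (−0.17 and −0.15), and Pla2g5 crossed from 0.62 to −1.34; vertical scales differ between panels.

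Among late probes that fell, Ankrd1 and Ccn1 are both known as targets of the YAP coactivator, and neither was called at any earlier time. Ankrd1, an ankyrin repeat protein of muscle and injured tissue, was at −0.30, −1.07 and −0.19 at 12 h and at −2.30, −1.84 and −2.24 at 18 h. Array 2 of 12 h was the lowest of its time and still above all 18 h arrays. The difference was −1.61 (95% interval −2.10 to −1.12, limma adjusted p 0.00520), and the 12 h mean missed the threshold against control (adjusted p 0.0621). Ccn1, a matrix protein that signals through integrins, was at −0.30, −0.09 and −0.11 and then at −0.98, −1.61 and −0.82. Its difference was −0.97 (adjusted p 0.0438), close to the threshold.

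Neo1, a receptor for netrins and repulsive guidance molecules, was above control on the 12 h arrays (0.52, 0.55, 0.16) and below it on the 18 h arrays (−0.67, −0.55, −0.85). The 12 h mean was not called (adjusted p 0.0591), and the difference was −1.10 (adjusted p 0.00992). Parm1, a mucin-like membrane protein, fell from −0.11, 0.07 and −0.41 to −1.20, −1.10 and −1.29 (difference −1.05, adjusted p 0.00888). Bub1b, a kinase of the spindle checkpoint, fell from −0.22, 0.23 and 0.26 to −0.92, −0.51 and −1.13 (difference −0.94, adjusted p 0.0338). Both were near control at 12 h, on either side of 0. Olr59, an olfactory receptor, fell by 1.01 (adjusted p 0.0194). Ctsq, a cathepsin known from placenta, fell by 1.36 (adjusted p 0.0405), but it had been called at 3 h, at −0.93, and it alone of the 17 late probes was called at an earlier time.

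Other late probes that fell have no symbol in the annotation used here. Probe 50A10 had the greatest difference of all calls, −2.77 (95% interval −3.64 to −1.89, adjusted p 0.00634). It was at 0.33, 1.27 and −0.11 at 12 h and at −1.65, −1.76 and −3.41 at 18 h, a wide spread at both times without overlap. Probes 51B10 and 45G07 differed by −1.11 and −0.96. Of the 32 calls, 10 lay on plates 36 to 53 of the probe set, all of them lower, where 1655 tested probes had a median difference of −0.09 against 0.04 on plates 1 to 35. After centring on plate medians 23 of the 32 kept their call, and the part of the plates in the others was not tested.

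The 7 late probes that rose had varied functions. Kcnj8, the pore subunit of an ATP-sensitive potassium channel, was at −0.65, 0.03 and 0.18 at 12 h and at 1.24, 0.81 and 1.06 at 18 h. The difference was 1.18 (95% interval 0.72 to 1.64, limma adjusted p 0.0194), and the 12 h arrays stood on both sides of control. Rpe65, the retinoid isomerase of the visual cycle, rose from −0.15, −0.35 and −0.08 to 1.00, 0.83 and 0.69 (difference 1.03, adjusted p 0.00634), and among the late probes that rose only it kept its call without any 1 of the 6 arrays. Cxcl6, a chemokine for neutrophils, rose from −0.62, −0.62 and 0.12 to 0.60, 0.78 and 0.87 (difference 1.12, adjusted p 0.0400). For all 3 genes every 18 h array lay above control, and the 12 h means were not called.

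Slc6a9, a glycine transporter, was at −0.55, −0.35 and −0.50 at 12 h and at 1.32, 1.22 and 0.30 at 18 h. Array 3 of 18 h lay apart from the other two, and the call was the nearest to the threshold of all 32 (difference 1.41, adjusted p 0.0455). Gamt, the last enzyme of creatine synthesis, rose by 1.01 (adjusted p 0.0194). Ap1b1, an adaptor subunit of clathrin coats, rose by 0.90 (adjusted p 0.0322), and Gna15, a G protein subunit that activates phospholipase C, rose by 0.83 (adjusted p 0.0405).

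Promoters were searched for the cAMP response element because dbcAMP acts through CREB. The full element, TGACGTCA, was in none of the promoters of the 20 changed genes that had one in the RefSeq table (GRCr8, a window around the start site). It was in 2.15% of the 3304 promoters of tested genes. The shorter TGACG, on either strand and also part of the full element, was in 4 of the 20 (20.0%), against 27.2% of the promoters of tested genes and 22.0% of all 27457 promoters. Among plateau genes with a promoter, 154 in all, the shares were 3.25% and 27.3%. The 4 genes were Ccn1, Rpe65, Cd24 and Ubtf, and the promoters of the late genes among them follow, 5′ to 3′ on the gene's strand, with the shorter motif, read here from the other strand as CGTCA, in capitals. The first is at chr2:237225640-237225939 on the minus strand, and the other at chr2:251425118-251425417 on the plus strand.
Ccn1: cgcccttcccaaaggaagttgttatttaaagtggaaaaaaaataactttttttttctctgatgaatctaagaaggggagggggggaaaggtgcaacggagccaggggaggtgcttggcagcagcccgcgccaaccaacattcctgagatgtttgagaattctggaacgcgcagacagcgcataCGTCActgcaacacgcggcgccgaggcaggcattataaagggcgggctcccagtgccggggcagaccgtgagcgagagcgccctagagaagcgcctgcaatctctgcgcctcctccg
Rpe65: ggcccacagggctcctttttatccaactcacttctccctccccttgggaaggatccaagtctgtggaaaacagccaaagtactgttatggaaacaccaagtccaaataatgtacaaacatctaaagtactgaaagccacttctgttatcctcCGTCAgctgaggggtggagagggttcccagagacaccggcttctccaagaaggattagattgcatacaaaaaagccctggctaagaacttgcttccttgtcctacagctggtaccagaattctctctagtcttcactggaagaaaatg
The motif starts at −67 from the start site in Ccn1, which fell, and at −98 in Rpe65, which rose. A match is a description of the letters and not of binding, and no promoter of Atf3, Ankrd1, Ctsq, S100a8, Nell2, Kcnn1 or Csf3 was analysed here.

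Returning probes had moved the opposite way at 12 h. Pla2g5, a secreted phospholipase that releases fatty acids from membranes, was at 0.62, 1.12 and 0.12 at 12 h and at −1.25, −1.30 and −1.46 at 18 h. It was called higher than control at 12 h and lower at 18 h, with a difference of −1.96 (95% interval −2.47 to −1.45, limma adjusted p 0.00188). Kcnn1, a calcium-activated potassium channel, crossed in the same direction, from 0.23, 0.41 and 0.54 to −0.62, −0.20 and −0.68 (difference −0.90, adjusted p 0.0126). Anxa3, a calcium-dependent membrane-binding protein, crossed the other way, from −1.19, −0.51 and −0.26 to 0.82, 0.56 and 0.45 (difference 1.27, adjusted p 0.0194). Probe 53G03 crossed from a mean of 0.35 to −0.68 (adjusted p 0.00278). Kcnj1, an inward rectifier potassium channel, had been called lower than control at 6 h (mean −0.52), was called higher at 12 h (0.78, 0.86, 0.49) and was not called at 18 h (−0.31, −0.29, −0.28), with an interval of −1.39 to −0.61 for the difference (adjusted p 0.0194). It was the only 1 of 111 probes called at 12 h and not at 18 h whose difference passed the test.

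The plateau group was larger than the groups that changed. Of its 231 probes, 97 were higher and 134 lower than control at 18 h, and the median size of the difference was 0.135. After centring on plate medians 186 probes were at a plateau, 143 of them among the 231. The genes with more than 1 plateau probe, Gad1 and Cacna1e, had them on opposite sides of control. Gad1 had means of 0.95 and 0.93 on plate 14, and of −0.64 and −0.59 on plate 52. Cacna1e had means of 1.00 and 0.75 on plate 21, and of −0.90 and −1.07 on plate 41. The part of the plates in these directions was not tested. Of the 231, 48 had been called with the same sign at 1 h, 54 at 3 h and 75 at 6 h, and 140 at no earlier time. At 1 h, 3 h and 6 h alike, 30 were called with that sign. The share of all probes called at these times is not given here. The 231 were also chosen by calls that share the spread of each probe with the earlier ones, so these counts are a description. Whether a constant dye bias has a part in such steady ratios was not tested. With a limit of 1.5-fold in place of 2-fold on the interval, 99 probes were at a plateau, and with only the 6 arrays fitted 51 were.

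Among plateau probes, those highest over control included the microtubule protein Map1b, at 2.06, 2.11 and 1.89 at 12 h and at 1.96, 1.25 and 1.64 at 18 h. Its interval for the difference ran from −0.85 to 0.04, and it had been called at 1 h, at 1.13. Another probe of Map1b was below control at both times, with means of −0.43 and −0.48. Inhba, the activin A subunit, was at 1.62, 0.88 and 1.32 and then at 1.65, 0.85 and 1.24. The 3 arrays of each time covered almost the same range, after a mean of −0.13 at 1 h and 2.20 at 6 h. Rarb, a retinoic acid receptor, had means of 1.39 and 1.54, and Crtac1, a cartilage matrix protein, of 1.39 and 1.25. Ece1, which cleaves endothelin, Apba3, an adaptor of the amyloid precursor protein, and Snrpn, a splicing protein, had 18 h means of 1.20, 1.78 and 1.62. Phlda1 had the greatest difference of these, at 1.00, 1.15 and 1.21 and then at 1.38, 1.77 and 1.96. Its arrays did not overlap and its interval ran from 0.21 to 0.96, so that a plateau by this rule does not show equal ratios.

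Those lowest included 2 guidance molecules that repel axons. Slit2 was at −2.09, −0.92 and −1.43 at 12 h and at −1.31, −1.36 and −1.83 at 18 h, and had already been called at −1.58 at 1 h. Sema3a was at −2.01, −1.40 and −0.50 and then at −1.47, −1.30 and −1.48. Its interval ran from −0.99 to 0.76, close to the limit. Complement C5 had means of −1.82 and −1.54, the cell cycle transcription factor E2f1 of −1.51 and −1.26, and the caspase activator Apaf1 of −1.46 and −1.85. All 3 had been called lower at 1 h, at −1.20, −1.22 and −1.06. The histamine receptor Hrh1 (−1.62 and −1.76) and the transcription factor Foxd4 (−1.39 and −1.53) were as low. The neutrophil defensin Np4 was at −0.11 at 1 h and at −1.56 and −1.48 at 12 h and 18 h. The probes of Slit2, Sema3a, Apaf1 and Hrh1 lie on plates 36 to 53, and the part of the plates in their ratios was not tested.

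**Figure D4:**
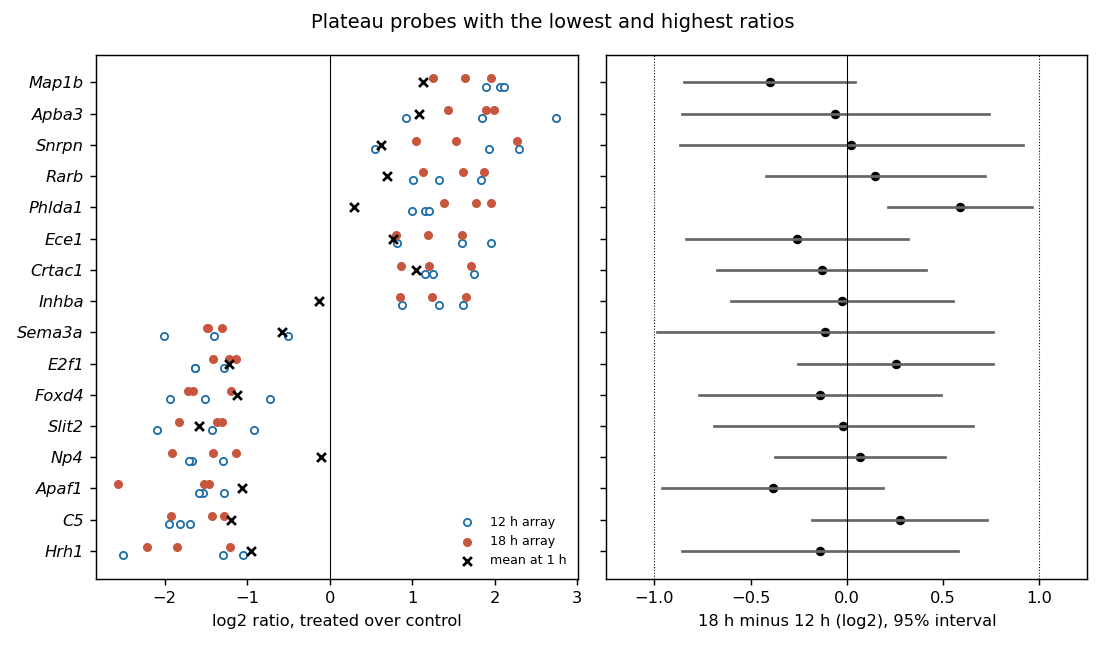
Left, log2 ratio of treated over control on each 12 h array (open circles) and 18 h array (filled circles), with the mean at 1 h (crosses), for the 8 highest and 8 lowest named plateau probes. Right, the difference between 18 h and 12 h with its 95% interval and dotted lines at −1 and 1; all 16 intervals lie between the dotted lines, and that of Phlda1 (0.21 to 0.96) does not cross 0.

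Gene lists showed how related genes moved, counted over genes with at least 1 probe. Of 4112 named genes, 319 (7.76%) had a probe whose 18 h arrays all lay above the 12 h arrays and 291 (7.08%) had 1 below, and the median difference was 0.01. Calls of a difference were made for 11 genes higher (0.268%) and 16 lower (0.389%). In most lists no member passed the test, so the counts without overlap and the medians are a description. With so few calls over all genes, a list without a call is not a result about its members. For lists, scaling to a common spread set only the 6 arrays to their own mean spread. The scaling of all 15 arrays used for single probes has a smaller unit, so list and probe values after scaling do not compare in size.

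Glycolysis and transport of glucose and lactate had 9 of 31 genes (29.0%) above without overlap and 3 below, with a median difference of 0.18 (0.17 after scaling to a common spread) and no call of a difference. Against control, 1 of the 31 genes was higher at 12 h (4.16% of all genes) and 11 at 18 h (11.9% of all genes). Lower than control were 0 at 12 h (4.77% of all genes) and 3 at 18 h (11.5% of all genes). The glucose transporter Slc2a3 was at −0.03, −0.61 and −0.05 at 12 h and at 1.03, 0.76 and 1.14 at 18 h (difference 1.21, limma adjusted p 0.0564). Slc2a1, another glucose transporter, was already called at 12 h, with means of 0.53 and 1.23 (adjusted p of the difference 0.0571). The lactate exporter Slc16a3 had means of 0.18 and 1.18 (adjusted p 0.0580). These genes were not called, although all arrays of 18 h lay above those of 12 h. Other members of the list fell, with differences of −1.01 for Pgam2 and −0.74 for Slc16a7.

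Regeneration-associated genes, which injured neurons switch on, had 13 of 34 (38.2%, against 7.08% of all genes) below without overlap and 6 above. Their median difference was −0.25, or −0.20 after scaling to a common spread, where 8 were below. Only Atf3 of the list passed the test. The list is not uniform, since Mt1, a metal-binding protein, Slpi, a protease inhibitor, and Arg1, the arginase that feeds polyamine synthesis, had positive differences. Slpi was at 1.57, 0.80 and 1.12 and then at 2.39, 1.89 and 3.20 (difference 1.33, adjusted p 0.0565). Arg1 was at 0.00, −0.04 and 0.33 and then at 1.51, 0.58 and 1.28 (difference 1.03, adjusted p 0.0602). The 3 probes of Mt1 had differences of 0.80, 0.60 and 0.57, with adjusted p of 0.0564, 0.0809 and 0.341.

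Gap43, a growth cone protein, was at −0.25, −0.26 and −0.29 at 12 h and at −0.59, −0.68 and −0.50 at 18 h, a difference of −0.32 (adjusted p 0.271). The arrays did not overlap and the interval of −0.60 to −0.04 did not reach 0, but the difference did not pass after adjustment over all probes. The 2 probes of Tuba1a, an alpha tubulin, disagreed, with differences of −1.28 (adjusted p 0.139), where array 1 of 18 h was at −2.48, and −0.07 (adjusted p 0.917). Sprr1a, induced in axotomised neurons, had a difference of −1.17 (adjusted p 0.207) with overlapping arrays. Of the 2 probes of Basp1, a relative of Gap43 in growth cones, 1 was at a plateau (−0.52 and −0.50). The neuropeptide precursor Vgf had differences of 0.50 and 0.37 on its 2 probes, neither of them called. The probe with 0.50 met the plateau rule, although its interval of 0.075 to 0.915 lay above 0.

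In the list of cytoskeleton and growth cone genes, 8 of 29 (27.6%, against 7.08% of all genes) were below without overlap and 1 above, with no call. The median difference was −0.20, which was −0.21 after scaling to a common spread and −0.10 after centring on plate medians. The actin-binding Tmsb4x was at −0.16, −0.23 and 0.07 and then at −0.72, −0.87 and −0.96 (difference −0.74, adjusted p 0.0571). Crmp1, which transmits semaphorin signals, had a difference of −0.96 (adjusted p 0.0894), and the beta tubulin Tubb2b one of −0.66 (adjusted p 0.111). Against control, 4 of the 29 genes were lower at 12 h (4.77% of all genes) and 12 at 18 h (11.5% of all genes). At each time 3 were higher (4.16% of all genes at 12 h and 11.9% at 18 h).

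The list of cytokines, chemokines and related inflammatory genes held 2 of the 11 named calls that were higher, the cytokine Csf3 and the hyaluronan-binding Tnfaip6. The chemokine Cxcl6, also called, is not in the list. Without overlap 6 of 29 genes lay above (20.7%, against 7.76% of all genes) and 2 below, or 3 and 1 after scaling to a common spread. Cxcl1, a neutrophil chemokine, was at 1.76, 1.20 and 1.83 and then at 0.99, 0.72 and 0.89 (difference −0.73, adjusted p 0.0890). Its relative Cxcl2 met the plateau rule with means of 1.01 and 1.47, but without overlap. The interval of Cxcl2, 0.12 to 0.79, lay above 0. The inducible nitric oxide synthase Nos2 had means of 0.16 and 1.00 (adjusted p 0.141). Il6, the neuropoietic cytokine, was at 2.26, 2.13 and 1.93 at 12 h and at −0.50, 3.25 and 2.83 at 18 h. Array 1 of 18 h lay far below the other two, and the difference of −0.25 had an interval of −1.67 to 1.18 (adjusted p 0.904), which gives no direction. Il6st, the shared receptor gp130, and Cntfr, the receptor of ciliary neurotrophic factor, were at a plateau above and below control (means 0.74 and 0.65, and −1.11 and −1.01). Ctf1, cardiotrophin-1, had a difference of 0.93 (adjusted p 0.0673), and no gene of the 13 measured in the gp130 list was called. Il6r (−0.47), Lif (0.23 and 0.03), Lifr (0.29) and Cntf (−0.19) had overlapping arrays.

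Extracellular matrix and protease genes had 8 of 41 above without overlap (19.5%) and 2 below. Over all genes 7.76% lay above and 7.08% below. Lox, which cross-links collagen, had means of −0.02 and 0.71 (adjusted p 0.0890), and the elastase Mmp12 of 0.17 and 0.99 (adjusted p 0.122). Among growth factors and receptors, 5 of 44 were above (11.4%) and 7 below (15.9%), or 6 and 4 after centring on plate medians. A plateau probe was present for 8 of these genes, and for 4.74% of all genes. The binding protein Igfbp5 had means of −0.06 and −1.02 on 1 probe (adjusted p 0.0710) and of −0.04 and −0.24 on another (adjusted p 0.786). Vegfa, the vascular growth factor, had 1 probe at a plateau below control (−1.07 and −1.37) and 1 with means of 0.20 and 0.81, so its direction depends on the probe.

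Genes of the cAMP pathway itself showed no call of a difference among 34 measured. Over all genes only 0.268% were called higher and 0.389% lower, so this absence says little about the pathway. Pde4b, which degrades cAMP, was at a plateau (means 1.15 and 1.20). Pde4d, of the same family, was at 1.64, 0.65 and 0.56 at 12 h and at −0.14, −0.07 and 0.37 at 18 h (difference −0.90, adjusted p 0.113). Both probes of Creb1, the CREB gene, had negative differences, −0.82 and −0.72 (adjusted p 0.0809 and 0.128), without overlap. Among 26 measured CREB targets, 1 was above and 5 below without overlap (19.2%, against 7.08% of all genes), and the median difference was −0.003, or −0.11 after scaling to a common spread. After centring on plate medians 1 was above and 3 below, with a median difference of 0.03. Antioxidant enzymes and metallothioneins had 3 of 26 above (11.5%, against 7.76% of all genes) and 1 below. After scaling to a common spread 1 was above and 3 below. The heme oxygenase Hmox1 met the plateau rule with means of 0.96 and 1.46, but without overlap. The interval of Hmox1, 0.12 to 0.89, lay above 0.

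Ribosomal protein genes varied little, with 2 of 63 above and 1 below without overlap (5 and 3 after scaling to a common spread) and differences between −0.30 and 0.44. Respiratory chain genes had a median difference of −0.15 with 1 of 25 above and 1 below, or 1 and 5 after centring on plate medians. Chaperones had 6 of 21 below without overlap (28.6%) and 1 above, among them Hspb1, a small heat shock protein of regenerating neurons, with means of 0.20 and −0.39 on 1 probe (adjusted p 0.207) and of −0.14 and −0.46 on another, whose arrays overlapped (adjusted p 0.436). Cell cycle genes had 5 of 24 above (20.8%) and 1 below, cholesterol genes 1 of 12 and 0, and prostaglandin genes 1 of 18 and 1. Protease inhibitors had 2 of 14 above (14.3%) and 2 below (14.3%). Neuropeptides and granins had 4 of 24 above (16.7%) and 2 below (8.3%). Over all genes 7.76% lay above and 7.08% below. The injury peptide Gal had means of 0.02 and −0.76 (adjusted p 0.0828), and Npy, another peptide of injured neurons, of 0.54 and 1.22 (adjusted p 0.188).

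**Figure D5:**
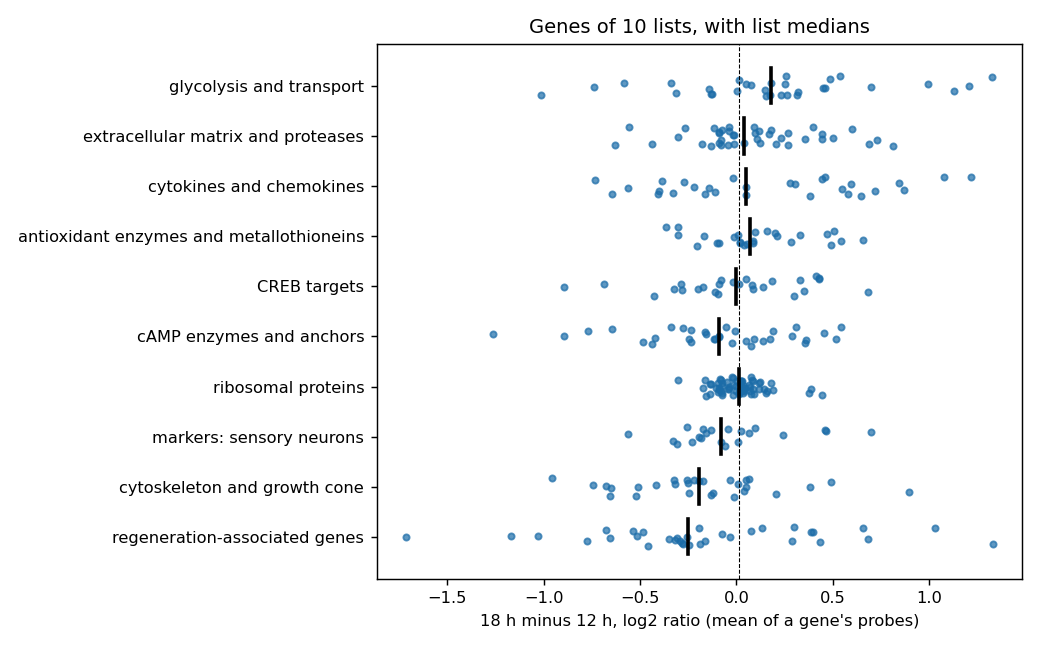
Difference in log2 ratio between 18 h and 12 h (horizontal axis) for each measured gene of 10 lists (points, the mean of a gene's probes; vertical scatter is for display), with list medians (bars) and the median of all named genes (dashed line, 0.01). The medians run from −0.25 for regeneration-associated genes to 0.18 for glycolysis and transport.

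Marker lists of cell types were read as ratios, since the files give no levels, so whether a defining marker is absent could not be read. The median over 21 measured sensory neuron markers was between −0.06 and −0.03 on each of the 6 arrays, and none of them was called as a difference. Schwann cell and satellite glia markers (20 genes) had array medians of 0.02 to 0.16 at 12 h and −0.08 to 0.02 at 18 h. Without overlap 5 of these genes lay below (25.0%, against 7.08% of all genes) and 1 above (5.0%, against 7.76%). After centring on plate medians 3 lay below and 1 above. Fibroblast markers (12 genes) had array medians of −0.39 to −0.16 and −0.29 to −0.22, macrophage markers (10 genes) of −0.04 to 0.17 and −0.16 to 0.03, and endothelial markers (12 genes) of 0.01 to 0.13 and −0.06 to 0.03. No gene of these 4 lists was called as a difference. Over all genes only 0.268% were called higher and 0.389% lower, so the absence of a call says little about any marker list.

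The markers of neutrophils and lymphocytes held 2 of the 16 named calls that were lower, S100a8 and S100a9. Without overlap 4 of the 13 genes lay below (30.8%, against 7.08% of all genes) and 2 above (15.4%, against 7.76%). The list's array medians were −0.21 to 0.01 at 12 h and −0.35 to 0.12 at 18 h, so the list as a whole did not separate the times. Ncf1, a subunit of the phagocyte oxidase, was at 0.91, −0.26 and −0.06 and then at −4.30, −0.67 and −2.38 (difference −2.65, limma adjusted p 0.0631), and the defensin Defa5 had means of −1.72 and −3.00 (adjusted p 0.104). Whether a change in such cells has a part in the fall of S100a8 and S100a9 was not tested.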

How the data were processed

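The authors deposited 1 ratio, linear and treated over control, per spotted oligonucleotide probe and array. How they corrected background, normalized and filtered is not given in the sources used here. Scanner intensities were not used here, so the number of arrays limits the precision. Each ratio was taken to log2 without further scaling. Gene names come from the annotation of the platform, which may be outdated, where 4423 of 5088 had 1 symbol, 2 had several and 663 had none, and 4375 matched the GRCr8 gene table.

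A probe was tested where at least 2 of 3 arrays had a ratio at both times, with limma 3.58.1 in R 4.3.3 (lmFit and eBayes, 1 mean per time, all 15 arrays, 18 h minus 12 h, two-sided, Benjamini-Hochberg over all probes tested, threshold 0.05). For dbcAMP, the paper reports tests of 18 h against control and none between times. Treated RNA carried Cy5 on all arrays, so a constant dye bias cancels in the difference. It does not cancel in the calls against control, on which the classes also rest. Genes were named as the 12 highest and 12 lowest differences past the threshold without overlap, the 8 highest and 8 lowest plateau probes, up to 4 returning and 4 continuing probes, the 3 smallest p-values of each of 25 lists, and genes the paper names. Not all of them are described, and others are. The members and lists were chosen with earlier results of these data known.

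Alternatives were centring on array or plate medians, a common spread, only the 6 arrays, a replicate block, the methods' t-test, a robust prior (statmod 1.5.0), stricter and looser limits on missing ratios, array weights, other thresholds, the arithmetic mean and leaving out each array. A common spread with only the 6 arrays was added after seeing the data. The fit was tested on simulated data, where with arrays as unequal in spread as these more calls were false than the threshold allows. Plots were drawn with matplotlib 3.10.9.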

Additional observations from a re-analysis of the deposited data

Results flagged for a closer look

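The log2 ratio differed between 18 h and 12 h for 32 probes, a difference between 2 times under the same treatment. Among them 4 were called on opposite sides of control at the 2 times. Pla2g5 went from higher to lower (difference −1.96), as did Kcnn1 (−0.90) and probe 53G03 (−1.03), and Anxa3 went from lower to higher (1.27). None of the 4 was called at 1, 3 or 6 h. No group of 4 or more arrays was present in which a single array could be tested as far from the others.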

How the results depend on the processing

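Counts depended on the setting. No difference of the 32 changed probes turned its sign, which in many settings was fixed because the means stay the same or because the arrays do not overlap. Against 32 changed, 11 higher, 21 lower, 17 late and 231 plateau probes, scaling the arrays to a common spread gave 0 changed, 0 late and 137 plateau probes (limma, 356 at an unadjusted p under 0.05). Fitting only the 6 arrays gave 0, 0 and 51 (371 at an unadjusted p under 0.05). Both together, chosen after seeing the data, gave 0, 0 and 83 (300 at an unadjusted p under 0.05). Array weights gave 9 changed, 0 higher, 9 lower, 4 late and 118 plateau probes. The methods' t-test gave 347 changed, 166 higher, 181 lower, 164 late and 101 plateau probes unadjusted, and after Benjamini-Hochberg 1 changed, 0 higher, 1 lower, 0 late and 0 plateau. A threshold of 0.01 gave 13 changed, 2 higher, 11 lower, 9 late and 101 plateau probes. Allowing 1 array of each time gave 26 late probes, and a limit of 1.5-fold gave 99 plateau probes. The cause was not tested.

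With replicate number as a block, 20 probes changed, 5 higher and 15 lower, of which 10 were late. All 20 were among the 32. Deviations of same-numbered 12 h and 18 h arrays correlated at 0.053, 0.037 and 0.020 across probes. Those of differently numbered arrays correlated at −0.045 to 0.005. Such small values cannot settle whether the numbers pair the arrays.

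Without each of the 6 arrays in turn, 22 to 81 probes changed, 6 to 38 higher and 16 to 43 lower, with 16 to 62 late and 81 to 230 plateau probes. The count was 81 without array 2 of 18 h, 62 without array 1 of 12 h and 49 without array 3 of 12 h. Late probes were 35 without array 3 of 18 h, and higher probes 6 without array 2 of 12 h. Counts fell to 81 plateau probes without array 1 of 12 h. With 3 arrays per time, the median 95% half-width was 0.519 before adjustment, and the smallest difference called was 0.742. Larger differences also missed the threshold, such as that of Slpi at 1.33.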

Other observations

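Some probes outside the changed and plateau groups had large ratios at both times. A probe of Ccnd1, the cyclin of the G1 phase, was at −2.72, −2.34 and −2.73 at 12 h and at −1.27, −1.69 and −1.40 at 18 h, a difference of 1.14 (limma adjusted p 0.113), after a mean of −2.74 at 6 h. Another probe of Ccnd1 disagreed, with means of 0.01 and 0.46 (adjusted p 0.446). The neurotrophin Ntf3 had means of −1.25 and −2.43 on 1 probe (adjusted p 0.128) and of −1.18 and −1.35 on another, which was at a plateau. Ptgs2, the inducible cyclooxygenase, had means of 1.37 and 1.84 on 1 probe (adjusted p 0.519) and of 0.65 and 0.55 on another (adjusted p 0.944). Barhl1 had the highest ratios, with means of 8.26 and 7.49, and Slc38a1, an amino acid transporter, had 4.45 and 3.70. Both were chosen after their values were seen.

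Sele, the endothelial selectin, was among the probes nearest to the threshold without passing it, at 1.08, 1.04 and 0.21 and then at −0.34, −0.29 and −0.14 (difference −1.04, adjusted p 0.0506). The 2 probes of S100a4, a calcium-binding protein of fibroblasts, had differences of −0.74 and −0.68 (adjusted p 0.0564 and 0.133). Asic3, an acid-sensing channel of sensory neurons, had means of 0.08 and 0.78 (adjusted p 0.0803), and Cnp, a myelin enzyme, of −0.14 and −0.65 (adjusted p 0.0893).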
